A study of Rattus norvegicus with 4 samples.

Results

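Serpins are a superfamily of secreted and intracellular proteins, most of which trap a target protease by a bait loop. The 9 serpin genes described here are Serpinf1, Serpine2, Serpinh1, Serping1, Serpini1, Serpinb6, Serpinb8, Serpinb9 and Serpinb1a, found by gene name in a count table of 32545 rat genes that holds 39 genes named Serpin. They were measured in S16 cells, a rat Schwann cell line, transfected with siRNAs against Nr2f1 and Nr2f2 (2 libraries) or with a control siRNA (2 libraries). Both groups received a lipid transfection reagent and an siRNA, untransfected cells were not analysed here, and the labels state no time between transfection and lysis. Serpinf1 leads the set because it had the largest rise in this same comparison, counting called protein-coding genes that reached 5 CPM (counts per 1000000 reads) in the higher group. Its values are therefore given as a description with no test. The other 8 were taken by name, and whether their values played a part in that choice is not known. The remaining 30 serpin genes of the table are counted beside them. Whether the libraries came from separate cultures is not said in the labels, so the spread behind the p-values may be technical. In bulk RNA, fewer cells of a type and less RNA per cell cannot be told apart.

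Nr2f1 and Nr2f2 encode COUP-TFI and COUP-TFII, orphan nuclear receptors that bind repeats of the half-site AGGTCA and often act as repressors. Serpins are grouped in clades by letter. Serpinf1 encodes pigment epithelium-derived factor (PEDF), a secreted glycoprotein known for blocking blood vessel growth and for supporting neurons, which does not inhibit proteases. Serpine2 encodes glia-derived nexin, an inhibitor of thrombin and of the plasminogen activators that promotes neurite outgrowth, and Serpini1 encodes neuroserpin, an inhibitor of tissue plasminogen activator. Serpinh1 encodes HSP47, a collagen chaperone of the endoplasmic reticulum. Serping1 encodes the C1 inhibitor of complement, and the clade B genes encode intracellular inhibitors of serine and cysteine proteases.

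Libraries carry the letters A and B as their columns are ordered, and levels are CPM scaled by edgeR's TMM factors. Total counts were 25618234 and 43057750 in siRNA libraries A and B, against 26561522 and 21556011 in control libraries A and B. Each library matched its label: Nr2f1 had 61.5 and 56.0 CPM after Nr2f1/Nr2f2 siRNA against 225.5 and 208.2 CPM after control siRNA. Nr2f2 likewise had 68.1 and 72.7 CPM after Nr2f1/Nr2f2 siRNA against 295.7 and 281.9 CPM after control siRNA. Schwann cell markers were abundant, with Sox10 at 760 and 686.4 CPM in siRNA libraries against 689.8 and 713.4 CPM in control libraries. Gap43, from the same list of 8 markers, had 0 counts in all 4. The summed level of 6 macrophage markers was 1.65 and 1.67 CPM in siRNA libraries against 1.55 and 1.83 CPM in control libraries. That of 4 endothelial markers was 3.68 and 4.48 CPM in siRNA libraries against 5.72 and 6.14 CPM in control libraries. Nearly all of the endothelial sum was Tek, at 3.68 and 4.48 CPM in siRNA libraries against 5.26 and 6.10 CPM in control libraries, and Tek was not called. Cdh5 and Kdr had 0 counts in all 4. Adipocyte markers summed to 0.192 and 0.160 CPM in siRNA libraries and to 0 and 0.0938 CPM in control libraries.

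The serpin transcripts of S16 cells were dominated by 2 genes. Serpinh1 held 69.1% and 65.5% of all serpin CPM in siRNA libraries A and B, against 71.0% and 69.7% in control libraries A and B. Serpine2 held 26.8% and 30.1% in siRNA libraries, against 25.5% and 27.2% in control libraries. Of the 39 serpin genes, 16 had a count in any library and 11 passed edgeR's filter on low counts and were tested. All 12 genes of clade A, which holds many of the liver's plasma serpins, had 0 counts. Of the 16 genes of clade B, 6 had a count and 3 were tested. Of the 9 genes of the set, 7 were tested, while Serping1 and Serpinb8 were not.

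**Figure D1:**
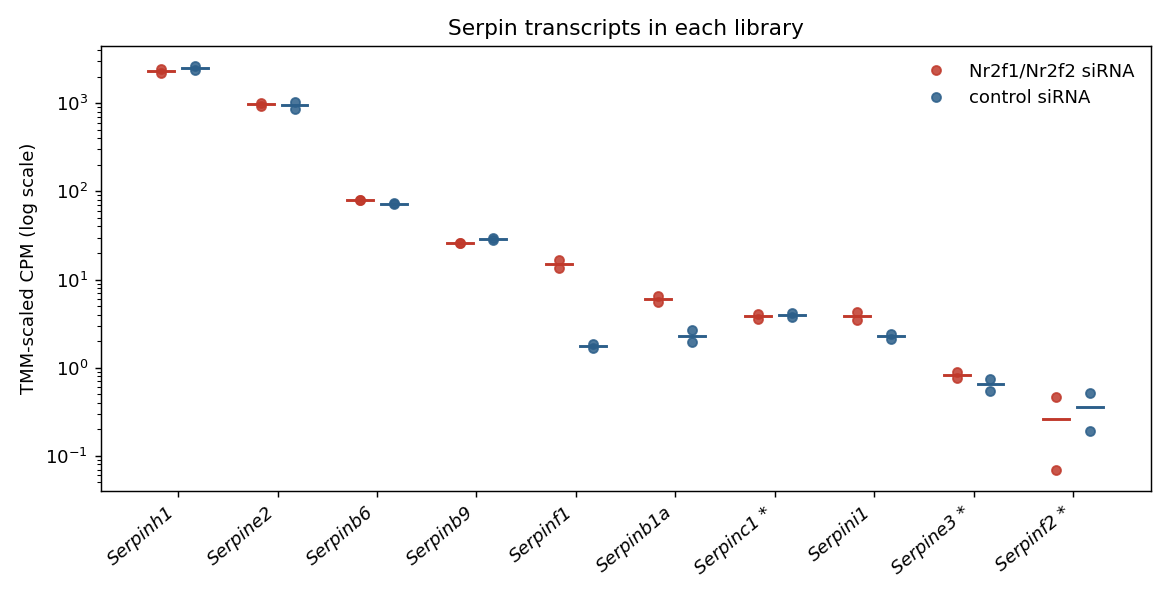
TMM-scaled CPM (log axis) of 10 tested serpin genes in each library, with the 2 Nr2f1/Nr2f2 siRNA libraries in red left of the 2 control siRNA libraries in blue. Bars are the mean of 2 libraries and asterisks mark genes outside the set of 9. Serpinf1 stands at 16.5 and 13.5 CPM in siRNA libraries against 1.66 and 1.88 CPM in control libraries, while Serpinh1 and Serpine2 stay near the top in both groups.

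Levels of different genes were compared per length, as CPM divided by the deposited gene length in kilobases (RPKM), given as mean ± SD with n = 2. In siRNA libraries Serpinh1 came first at 1105 ± 81.6 RPKM and Serpine2 next at 454.2 ± 21.5 RPKM, followed by Serpinb6 at 59.4 ± 0.459 RPKM, Serpinb9 at 14.6 ± 0.0134 RPKM and Serpinf1 at 9.70 ± 1.37 RPKM. Serpinb1a was at 4.83 ± 0.504 RPKM and Serpini1 at 1.25 ± 0.178 RPKM. The first 4 places were the same in control libraries. Serpinf1 was 5th of 11 in siRNA libraries and 8th of 11 in control libraries, where it stood at 1.14 ± 0.0976 RPKM. Library values of neighbours in this order overlapped for Serpini1 and Serpinc1 in siRNA libraries, and for Serpinc1 and Serpinf1 in control libraries.

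Serpinf1 (ENSRNOG00000003172) lies on chromosome 10 from 62241756 to 62254287 on the minus strand in the deposited coordinates, whose build none of the labels or headers names. It had 431 and 592 counts in siRNA libraries A and B, against 43 and 40 counts in control libraries A and B. After scaling this came to 16.5 and 13.5 CPM in siRNA libraries and 1.66 and 1.88 CPM in control libraries. Both siRNA libraries lay above both control libraries, which the choice of the gene fixes. The ratio of the group means was 8.49, and the fitted log2 fold change was 3.07. In the authors' deposited table it was 3.08.

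Among all tested genes Serpinf1 stood in the middle range after Nr2f1/Nr2f2 siRNA and among the low ones after control siRNA. It was above 40.5% and 37.0% of the 13018 tested genes in siRNA libraries A and B, against 14.4% and 14.7% in control libraries A and B. Even so it made up 0.469% and 0.404% of serpin CPM in siRNA libraries, against 0.0492% and 0.0496% in control libraries. With Serpinh1 and Serpine2 set aside, its share was 11.4% and 9.31% in siRNA libraries and 1.40% and 1.58% in control libraries. Its place as the largest rise depended on the limit of 5 CPM, on the call and on counting protein-coding genes only. Of all tested genes, 26 had a larger fitted log2 fold change, and 13 of these were called. The next below it under the same limits were Sts (2.53) and Tm4sf1 (2.48).

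Fibroblasts are a known source of PEDF, so fibroblast markers are given beside Serpinf1. Of 6, Dcn, Lum and Thy1 had 0 counts in all 4 libraries. The list summed to 13398 and 13310 CPM in siRNA libraries and to 13501 and 13090 CPM in control libraries, nearly all of it Col1a1 and Col3a1. Pdgfra was at 3.22 and 3.15 CPM in siRNA libraries against 1.39 and 2.11 CPM in control libraries, and did not pass the test (adjusted p = 0.0505 in edgeR's quasi-likelihood fit, adjusted by Benjamini-Hochberg over all tested genes, as for every adjusted p below unless another tool is named). Its part in the Serpinf1 values was not tested.

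The genes beside Serpinf1 did not share its change in size. Serpinf2, the gene of alpha-2-antiplasmin, lies 10501 bases away on the same strand and had 12 and 3 counts in siRNA libraries against 5 and 11 counts in control libraries. These values overlap, and no change was called (log2 fold change of -0.64, 95% interval -2.58 to 1.29, adjusted p = 0.672). On the other side Smyd4, 3643 bases away, was at 7.70 and 6.28 CPM in siRNA libraries and 5.53 and 7.22 CPM in control libraries, again overlapping (adjusted p = 0.721). Further out, Rpa1 fell (log2 fold change -0.37, SE 0.08, adjusted p = 0.00729) and Wdr81 rose (0.30, SE 0.09, adjusted p = 0.0274). No gene of the deposited table overlaps Serpinf1 or any other tested serpin gene in its coordinates.

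The start regions of the serpins are shown because the lowered factors bind AGGTCA. RefSeq windows in the GRCr8 build were matched for 10 of 13 genes, which are the 11 tested serpins with Serping1 and Serpinb8; Serpinb6 was matched to Serpinb6a, which lists it as a synonym. The 250 bases before the start of 3 serpins with the half-site and of the 2 called serpins without it are printed 5′ to 3′ on the gene's strand, with AGGTCA or its reverse complement TGACCT in capitals.
Serpinf1, chr10:60760899-60761148, minus strand: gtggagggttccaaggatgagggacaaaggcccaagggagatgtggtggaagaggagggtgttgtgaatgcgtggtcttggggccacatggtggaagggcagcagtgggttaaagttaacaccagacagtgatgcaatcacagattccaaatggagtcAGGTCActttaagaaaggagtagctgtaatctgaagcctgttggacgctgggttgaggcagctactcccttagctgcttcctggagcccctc
Serpinf2, chr10:60778783-60779032, minus strand: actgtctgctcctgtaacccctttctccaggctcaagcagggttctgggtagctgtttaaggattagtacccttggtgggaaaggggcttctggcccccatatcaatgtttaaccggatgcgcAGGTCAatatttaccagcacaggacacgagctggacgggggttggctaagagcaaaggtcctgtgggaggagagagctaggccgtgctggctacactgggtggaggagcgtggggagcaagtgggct
Serpinc1, chr13:75790308-75790557, plus strand: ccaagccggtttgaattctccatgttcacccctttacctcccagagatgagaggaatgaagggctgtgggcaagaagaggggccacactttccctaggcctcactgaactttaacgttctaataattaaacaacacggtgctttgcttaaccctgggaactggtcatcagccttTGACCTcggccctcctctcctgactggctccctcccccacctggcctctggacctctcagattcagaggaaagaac
Serpinb1a, chr17:31799196-31799445, plus strand: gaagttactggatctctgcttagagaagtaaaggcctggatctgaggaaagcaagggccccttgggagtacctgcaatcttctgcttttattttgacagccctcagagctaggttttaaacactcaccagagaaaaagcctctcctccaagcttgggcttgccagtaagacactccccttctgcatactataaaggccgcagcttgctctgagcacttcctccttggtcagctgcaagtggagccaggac
Serpini1, chr2:162645112-162645361, plus strand: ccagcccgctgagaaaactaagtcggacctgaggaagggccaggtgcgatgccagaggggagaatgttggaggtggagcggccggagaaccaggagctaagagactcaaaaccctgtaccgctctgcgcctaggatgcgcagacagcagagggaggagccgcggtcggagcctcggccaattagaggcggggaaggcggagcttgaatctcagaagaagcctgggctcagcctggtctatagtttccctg

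The half-site in Serpinf1 begins 92 bases before the start and reads forward. Serpinf2 holds one 127 bases before its start, also forward, and Serpinc1 holds one 76 bases before, in reverse. AGGTCA on either strand occurred in 4 of the 11 serpin windows of 300 bases (250 before and 50 after the start; Serpinb6a has 2 windows), those of Serpinf1, Serpinf2, Serpinc1 and Serpine3, and in 16.2% of all 33469 windows. Serpinf2, Serpinc1 and Serpine3 did not pass the test between the groups, and the 2 called serpins other than Serpinf1 had no match in their windows. None of the 11 windows held a direct repeat of AGGTCA with 0 to 5 bases between the copies, of which the commonest, with 1 base between them, was in 0.0538% of all windows. A match describes letters and is not a binding site, and no match says only that these letters are not in this window.

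The 5 protein-coding genes whose log2 CPM, centred over the 4 libraries, lay nearest to that of Serpinf1 among 9971 genes were Sts (distance 0.614 log2 units), Fa2h (0.686), Tm4sf1 (0.764), Cyp26b1 (0.966) and Anxa8 (1.06). Sts was at 19.5 and 18.1 CPM in siRNA libraries against 2.71 and 3.89 CPM in control libraries, and Fa2h at 37.6 and 31.4 CPM in siRNA libraries against 6.42 and 6.57 CPM in control libraries. Sts encodes steroid sulfatase and Fa2h a fatty acid hydroxylase of myelin lipids. Sts, Fa2h and Anxa8 shared with Serpinf1 the order of the siRNA libraries, A above B, and Tm4sf1 and Cyp26b1 had the opposite order. These profiles rest on the same 4 libraries and are a description.

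Serpinb1a (ENSRNOG00000016581, chromosome 17 from 32904119 to 32911495, plus strand) rose most among the tested serpins outside the one chosen for its rise. In other species its product inhibits elastase-like and chymotrypsin-like proteases of neutrophils. It was at 5.59 and 6.49 CPM in siRNA libraries A and B, against 2.67 and 1.97 CPM in control libraries A and B. The groups did not overlap, the mean ratio was 2.61, and the log2 fold change was 1.38 (SE 0.24, 95% interval 0.86 to 1.90, adjusted p = 0.00179). Of all 13018 tested genes 18.1% were called, 8.05% as higher. The Serpinb1a call rested on 430 counts in siRNA libraries and 111 counts in control libraries. Across the alternatives its adjusted p lay between 0.000578 and 0.0117, and the authors' deposited table gave 1.37 with an adjusted p of 0.00125. Its paralog Serpinb1b, which could share reads with it, had 1 count in all.

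The other tested clade B genes, in the same stretch of chromosome 17, were more abundant and did not pass the test. Serpinb6 (ENSRNOG00000017962, from 32190801 to 32209590, plus strand), whose product is known to inhibit cathepsin G, was at 79.8 and 80.7 CPM in siRNA libraries against 71.0 and 73.0 CPM in control libraries. The groups did not overlap, but the difference of 0.16 on the log2 scale (95% interval -0.02 to 0.33) had an adjusted p = 0.210. Serpinb9 (ENSRNOG00000033772, from 32650441 to 32661865, minus strand), whose human relative inhibits granzyme B, was at 26.1 CPM in both siRNA libraries against 29.3 and 28.1 CPM in control libraries. It lay slightly lower in both siRNA libraries (log2 fold change -0.14, 95% interval -0.36 to 0.08, adjusted p = 0.391). Both intervals exclude a 2-fold change. Serpinb9d had 4 counts in all and Serpinb6b had 0.

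Serpinb8 (ENSRNOG00000002396, chromosome 13 from 27889345 to 27914006, plus strand), whose human product inhibits furin, had 0 counts in all 4 libraries. A count of 0 allows up to 3 counts, which is 0.115 and 0.0685 CPM in siRNA libraries A and B and 0.116 and 0.141 CPM in control libraries A and B, for counting error only. Furin itself was expressed at 244.4 and 225.3 CPM in siRNA libraries and at 211.6 and 233.5 CPM in control libraries (adjusted p = 0.555). Of a list of 20 protease genes, which holds known targets of clade B serpins and relatives not known as targets, 12 were tested, 5 of them rose and the other 7 did not pass, where 8.05% of all tested genes were called higher. The cathepsin gene Ctsl rose to 189.8 and 205.5 CPM in siRNA libraries, against 136.3 and 134.9 CPM in control libraries (log2 fold change 0.54, SE 0.08, adjusted p = 0.000502). The convertase genes Pcsk5 (0.41, adjusted p = 0.00474) and Pcsk6 (0.28, adjusted p = 0.0410) and Casp8 (0.52, adjusted p = 0.0105), a gene of an apoptosis-initiating protease, rose too. Without control library B or siRNA library B, 3 members of the list rose. Of the neutrophil and mast cell protease genes, Ctsg, Elane and Cma1 had 0 counts in all 4 libraries. Prtn3 had 4 and 16 counts in siRNA libraries A and B, against 2 and 0 counts in control libraries A and B. Gzmb, the granzyme B gene, had 4 and 9 counts in siRNA libraries against 4 and 21 counts in control libraries. Neither Prtn3 nor Gzmb was tested. The cathepsin genes Ctsb and Ctsh, the most abundant of the list, did not pass. The median log2 fold change of the 12 was 0.31, against 0.01 over all tested genes.

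Serpini1 (ENSRNOG00000010248, chromosome 2 from 174013288 to 174111752, plus strand) was at 3.49 and 4.27 CPM in siRNA libraries A and B, against 2.43 and 2.11 CPM in control libraries A and B. The groups did not overlap, and it passed the test narrowly (log2 fold change 0.79, SE 0.25, 95% interval 0.24 to 1.34, adjusted p = 0.0486). It was no longer called without control library A (adjusted p = 0.134), control library B (0.196) or siRNA library B (0.312), with DESeq2's size factors (0.0504), by limma-voom (0.0782) and by the DESeq2 Wald test (0.152). In the authors' deposited table its adjusted p was 0.189.

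Serpine2 (ENSRNOG00000015461, chromosome 9 from 85560863 to 85626094, minus strand) was abundant and did not pass the test. It was at 942 and 1007 CPM in siRNA libraries A and B, against 861.8 and 1027 CPM in control libraries A and B. The groups overlapped, and the log2 fold change of 0.05 had a 95% interval of -0.14 to 0.23 (adjusted p = 0.765). Serpine3 and the antithrombin gene Serpinc1 were weakly expressed and did not pass either (adjusted p = 0.598 and 0.835).

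Of 22 genes of plasminogen activation and thrombin signalling, 13 were tested: 5 fell, 1 rose and no call was made for 7, where 10.0% of all tested genes were called lower and 8.05% higher. These 13 had a median of -0.14 on the log2 scale, against 0.01 over all tested genes. Plat, the gene of tissue plasminogen activator, fell to 626.5 and 640.3 CPM in siRNA libraries, against 753 and 822.4 CPM in control libraries (log2 fold change -0.31, SE 0.07, adjusted p = 0.00994), a call that was gone without siRNA library A (0.0767) or siRNA library B (0.0544). The lipoprotein receptor genes Lrp8 (-0.68, adjusted p = 0.000307) and Vldlr (-0.31, adjusted p = 0.0237) fell. Vldlr lost its call without control library A and without siRNA library A. Also lower were Plg (-0.60, adjusted p = 0.00334), the plasminogen gene, and S100a10 (-0.30, adjusted p = 0.0193), whose product holds plasminogen at the cell surface. S100a10 was not called without control library B (0.0675) or siRNA library B (0.241), and 3 members of the list fell without either siRNA library. The thrombin receptor gene F2r rose by 0.27 (adjusted p = 0.0468), a call lost without control library B and without either siRNA library. Lrp1, which takes up serpin-protease complexes, was at 1238 and 1212 CPM in siRNA libraries against 1150 and 1045 CPM in control libraries and did not pass (adjusted p = 0.156).

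Serpinh1 (ENSRNOG00000016831, chromosome 1 from 164301010 to 164308317, minus strand) was the most abundant serpin transcript and did not pass the test. It was at 2433 and 2191 CPM in siRNA libraries A and B, against 2397 and 2634 CPM in control libraries A and B. The groups overlapped, and the log2 fold change was -0.12 (95% interval -0.29 to 0.05, adjusted p = 0.312). Of 21 genes of enzymes and chaperones that work on collagen, 19 were tested, and 1 fell, 1 rose and 17 were not called, where 18.1% of all tested genes were called. Their median log2 fold change was -0.05, against 0.01 over all tested genes. Plod2, a lysyl hydroxylase gene, fell to 200.7 and 201.6 CPM in siRNA libraries, against 361.3 and 312.1 CPM in control libraries (log2 fold change -0.74, SE 0.08, adjusted p = 9e-05). Colgalt2, a collagen galactosyltransferase gene, rose to 31.9 and 30.3 CPM in siRNA libraries, against 14.3 and 17.5 CPM in control libraries (0.97, SE 0.12, adjusted p = 0.000213). Without siRNA library A, 2 members of this list rose and 3 fell. The abundant P4hb (adjusted p = 0.210) and Pcolce (adjusted p = 0.704) did not pass. Of 9 collagen chain genes, all tested, with a median of -0.03, Col4a1 fell (-0.36, adjusted p = 0.00775), Col6a2 rose (0.23, adjusted p = 0.0403) and 7 did not pass, among them Col1a1 at 11641 and 11584 CPM in siRNA libraries and 12015 and 11540 CPM in control libraries. Col6a2 lost its call with any 1 library left out (adjusted p 0.0744 to 0.290), and Col4a1 lost it without siRNA library B (0.153).

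Serping1 (ENSRNOG00000007457, chromosome 3 from 72161189 to 72171078, minus strand) was barely detected, with 0 and 1 counts in siRNA libraries A and B and 0 and 2 counts in control libraries A and B, so no fold is given. Its targets include the complement proteases of the C1 complex. Of 24 genes of the complement and contact systems, 22 were in the table and 10 were tested; 3 rose and 7 did not pass, where 8.05% of all tested genes were called higher. Their median log2 fold change was 0.28, against 0.01 over all tested genes. C1s rose to 5.21 and 4.89 CPM in siRNA libraries, against 1.35 and 3.10 CPM in control libraries (log2 fold change 1.22, SE 0.30, adjusted p = 0.0149). Without control library A it was not called (adjusted p = 0.173), when the value was 0.69 and 0 genes of the list were called; without siRNA library B, 1 was. Clu, the clusterin gene, rose by 0.56 (SE 0.14, adjusted p = 0.0137), and Masp1 by 0.31 (SE 0.10, adjusted p = 0.0466). Clu was not called without control library A (0.107) or siRNA library B (0.145), and Masp1 was not called in 6 of 11 alternatives. C1r, the partner of C1s, was at 72.8 and 72.1 CPM in siRNA libraries against 58.0 and 64.4 CPM in control libraries and did not pass (adjusted p = 0.0736). C1qbp, the most abundant gene of the list, did not pass (adjusted p = 0.667).

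Of 6 genes of proteins reported to bind PEDF, 4 were tested, and the gene of 1 membrane receptor rose, where 8.05% of all tested genes were called higher. The median log2 fold change of the 4 was -0.11, against 0.01 over all tested genes. Plxdc1 was at 1.99 and 2.67 CPM in siRNA libraries A and B, against 0.812 and 0.938 CPM in control libraries A and B, without overlap (log2 fold change 1.46, SE 0.36, adjusted p = 0.0131). It rested on 169 counts in siRNA libraries and 41 counts in control libraries, and lost its call without control library A (adjusted p = 0.105) or siRNA library B (0.112). The receptor genes Pnpla2 and Plxdc2 had 10 and 13 counts over the 4 libraries and were not tested. Rpsa, Atp5b and Lrp6, abundant genes of the same list with broad other roles, did not pass (adjusted p = 0.211, 0.291 and 0.455).

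**Figure D2:**
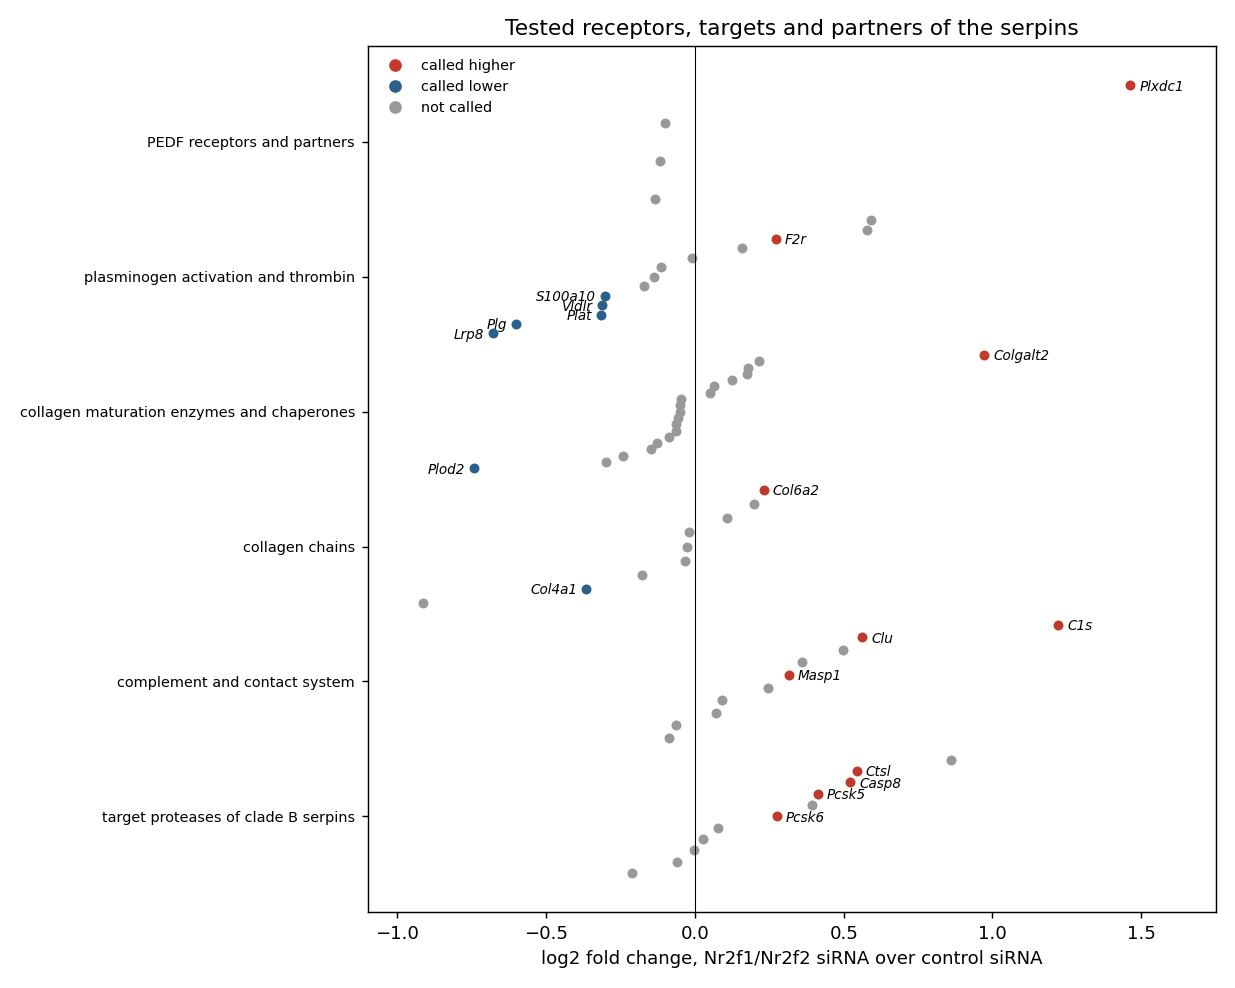
Log2 fold change (Nr2f1/Nr2f2 siRNA over control siRNA) of tested genes in 6 lists of receptors, target proteases, substrates and partners of the serpins, 1 point a gene, red for called higher, blue for called lower and grey for not called. Plxdc1 at 1.46 stands at the right of the PEDF list, while the plasminogen list holds 5 of the 7 genes called lower.

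Serpinb1a and Serpini1, 2 of 10 tested serpins other than Serpinf1, were called higher by edgeR. Of all 13018 tested genes 18.1% were called, 8.05% higher and 10.0% lower. Within the set of 9, Serpinb1a and Serpini1 were 2 of 6 tested beside Serpinf1, a number too small to set apart from that share. No serpin was called lower by edgeR or by DESeq2. The siRNA and control libraries did not overlap for 6 of the 10, and for 58.6% of all tested genes. Both siRNA libraries lay above both control libraries for 30.1% of all tested genes. The median log2 fold change of the 10 was 0.10, against 0.01 over all tested genes.

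**Figure D3:**
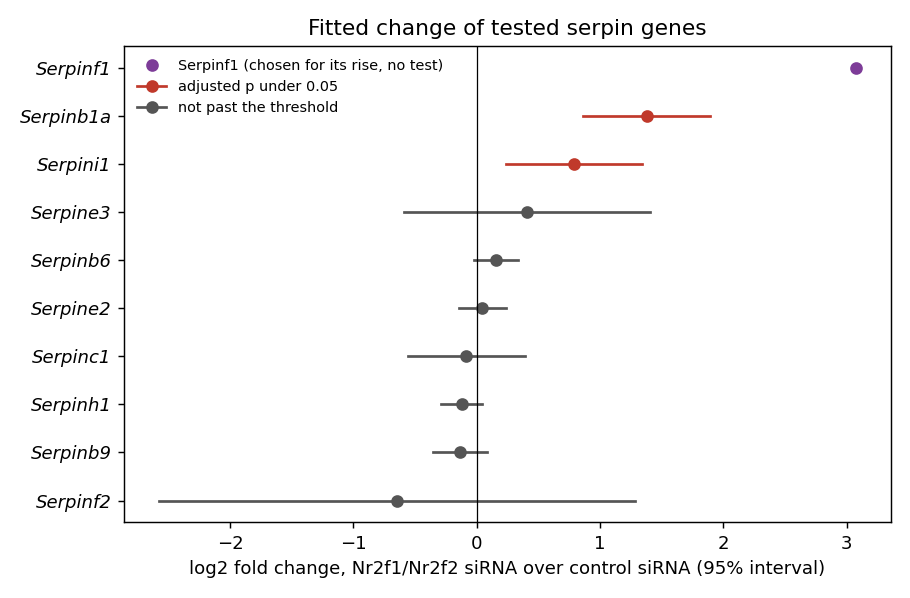
Fitted log2 fold change (Nr2f1/Nr2f2 siRNA over control siRNA) of 10 tested serpin genes, with 95% intervals from edgeR for all but Serpinf1. Serpinf1, in purple, was chosen for its rise and carries no test or interval; Serpinb1a and Serpini1, in red, passed the threshold; the other 7, in grey, did not.

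The serpins that were called lay in a range of abundance where fitted values were wider and tilted upwards. Serpinf1, Serpinb1a, Serpini1 and Serpinc1 averaged above 1 and up to 10 CPM over the 4 libraries. Of the 2921 genes in that range, 7.16% were called higher and 4.31% lower. Their log2 fold changes had a median of 0.12 and a 95th percentile of 1.03. Serpinb1a at 1.38 was above that percentile and Serpini1 at 0.79 was below it. Serpinh1 and Serpine2 were among the 2221 genes of the highest range, above 100 CPM, where 8.51% were called higher and 18.8% lower. Serpinb6 and Serpinb9 were among 6641 genes above 10 and up to 100 CPM, with 9.13% called higher and 11.2% lower. Of the 1235 genes up to 1 CPM, among them Serpine3 and Serpinf2, 3.56% were called higher and 0.972% lower.

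**Figure D4:**
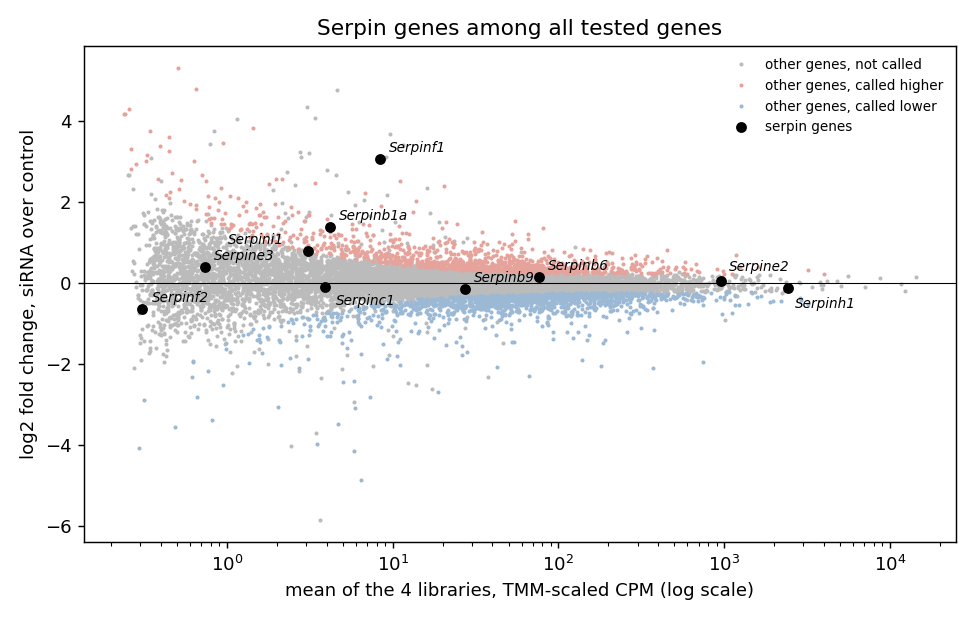
Log2 fold change (Nr2f1/Nr2f2 siRNA over control siRNA) against the mean TMM-scaled CPM of the 4 libraries (log axis) for the tested genes, with other genes called higher in red, called lower in blue and not called in grey, and 10 tested serpins in black. Serpinf1 at 3.07 stands clear of the other serpins, and the abundant Serpine2 and Serpinh1 lie near 0.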

How the data were processed

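RNA of 4 libraries was selected by poly-T beads, per the labels' protocols, and sequenced on Illumina's NovaSeq platform. The authors deposited whole-number read counts per Ensembl gene, and HISAT2, featureCounts 1.5.0-p3 and DESeq2 1.20.0 are named in the submitters' processing notes without their roles; the sources used here do not give the build, annotation release or strand setting. Their deposited comparison table also holds signal values (counts divided by a size factor per library), log2 fold changes and p-values. Only the last pair was used, under the authors' name. In total, 8 further library columns were not used. Columns name a group and a number, not a titled replicate, so libraries are A and B in column order.

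The deposited counts were tested unchanged in R 4.3.3 by edgeR 4.0.16: filterByExpr (13018 genes kept), TMM factors from 0.975 to 1.02, glmQLFit with robust dispersion (coefficient of variation 0.111), Benjamini-Hochberg adjustment over all tested genes and a threshold of 0.05. Standard errors come from the F statistic and 95% intervals from its degrees of freedom. DESeq2 1.42.0 and limma 3.58.1 served as alternatives, and the edgeR step was tested on simulated data. Promoter windows are RefSeq's. With 2 libraries a group, SDs are rough.

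The 9 genes, the lists and the tests were chosen with earlier results of these data known. Named list genes are up to 4 called members by adjusted p and the 2 most abundant; others were chosen after their values were seen. Values of 1 tested serpin and 1 list gene are not reported here; counts over the family and the lists include them.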

Additional observations from a re-analysis of the deposited data

How the results depend on the processing

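Serpinf1 lay between 2.94 and 3.22 on the log2 scale over 11 alternatives, and Serpinb1a kept its call in all 11 (1.19 to 1.63). No paired analysis was possible because the deposited columns carry the numbers 3 and 2 for siRNA libraries and 3 and 1 for control libraries, which share 1 number and do not match the titles. With library size alone, the median over all genes moved up by 0.052 on the log2 scale.

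Leaving out 1 library in turn left 602 to 766 genes called higher (1048 with all libraries) and 751 to 1086 called lower (1302). Serpins called higher other than Serpinf1 were 1 to 2 without 1 library, and 1 with DESeq2's size factors, the DESeq2 Wald test or limma-voom. Without 1 library, list members ranged, for PEDF partners, from 0 to 1 higher; for plasminogen activation, from 0 to 1 higher and 3 to 4 lower; for collagen maturation, from 1 to 2 higher and 1 to 3 lower; for collagen chains, 0 higher and 0 to 1 lower; for complement, from 0 to 4 higher; and for clade B targets, from 3 to 4 higher. Plasminogen activation had 0 higher with DESeq2's size factors, the Wald test or limma-voom. Collagen maturation had 2 higher with library size alone or upper-quartile scaling, and 2 lower with the Wald test. Collagen chains had 2 higher with library size alone, upper-quartile scaling or the Wald test. Complement had 4 higher with library size alone or upper-quartile scaling, and 2 with DESeq2's size factors, the Wald test or limma-voom. Clade B targets had 6 higher with library size alone or upper-quartile scaling, and 4 with the Wald test. Library size alone gave 3 serpins called higher other than Serpinf1.

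Of the 11 tested serpins and 26 list genes followed across the alternatives, 8 changed sign, and none of them was called with all libraries. Without 1 library the values ran from -0.078 to 0.169 for Serpine2, -0.160 to 0.012 for Serpinc1, -2.24 to 0.429 for Serpinf2, -0.111 to 0.002 for Pcolce, -0.058 to 0.006 for Col1a1, -0.162 to 0.031 for C1qbp, -0.029 to 0.074 for Ctsb and -0.052 to 0.034 for Ctsh. With library size alone Pcolce was at 0.002, Col1a1 at 0.032 and Ctsh at 0.048; with upper-quartile scaling Col1a1 was at 0.013 and Ctsh at 0.030; with a filter of 1 CPM in 2 libraries Ctsh was at 0.001. The cause of these changes was not tested. With GGGTCA in place of AGGTCA, 0 of 11 serpin windows and 13.8% of all windows held a match. Genes under 1 CPM, such as Serpinf2, rest on few counts, and a 2-fold change there was within their intervals.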

Other observations

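Among the collagen chains that HSP47 serves, Col1a2 varied within groups far more than its partner chain. It was at 442.8 and 952.8 CPM in siRNA libraries A and B, against 1025 and 1609 CPM in control libraries A and B, while Col1a1 was at 11641 and 11584 CPM in siRNA libraries against 12015 and 11540 CPM in control libraries. The Col1a2 difference did not pass edgeR's quasi-likelihood test (log2 fold change -0.91, SE 0.61, adjusted p = 0.460). Col1a2 was singled out after its values were seen, and the cause of its spread was not tested.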
